A study of Mus musculus with 12 samples.

Results

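Quaternary ammonium compounds are surfactants and disinfectants built on a nitrogen atom that carries a permanent positive charge. In 2 of the 3 compounds of the series, cetylpyridinium chloride (CPC) and C12-C14-alkyl(ethylbenzyl)dimethylammonium chloride (AEBDAC), the molecule holds an aromatic ring, and that nitrogen carries a single long alkyl chain. In the other one, methyltrioctylammonium chloride (MTOAC), the nitrogen carries octyl chains and the molecule has no ring. The libraries were chosen by the treatment label alone: 6 libraries of the ring-bearing compounds, 3 of CPC and 3 of AEBDAC, were set against 3 libraries of MTOAC, out of 12 libraries in the series. The remaining 3 libraries received the vehicle, dimethyl sulfoxide (DMSO), and are given as background. All 4 groups were oligodendrocyte progenitor cells (OPCs) derived from mouse pluripotent stem cells, grown with Noggin, NT3, cAMP and IGF-1, plated on poly-L-ornithine and laminin in a medium that permits differentiation, left to attach for 1 h and exposed for 4 h. No genotype, strain or sex is named in the labels, and nothing says whether the 3 libraries of a group came from separate cultures, so that the spread behind each p-value is one between libraries and may be technical.

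Each compound was given at its own IC75, the concentration that inhibits by 75%, and the concentrations are not in the labels. The compounds are therefore matched for a nominal inhibition and for exposure time, and not for concentration. Whether their effects were equal after 4 h was not tested. The comparison also has a single compound without a ring: the presence of a ring, the number and length of the alkyl chains, the concentration and every other property of MTOAC change together and cannot be told apart. What is compared below is MTOAC with the mean of the CPC and AEBDAC group means, each weighted equally, beside the 3 pairwise differences between the compounds.

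OPCs divide, migrate and give rise to the myelin-forming oligodendrocytes of the central nervous system. Their identity rests on transcription factors such as Olig1, Olig2 and Sox10, and their expansion on platelet-derived growth factor signalling through the receptor encoded by Pdgfra. Cationic surfactants insert into membranes, including those of mitochondria. Cells under chemical stress turn on separable gene programmes: heat shock genes, which encode chaperones and are driven by HSF1, targets of the integrated stress response, which are driven by ATF4, and immediate early genes, which respond to kinase signalling within minutes.

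Values are in TPM, a unit of transcript abundance that is scaled for transcript length and to the total of each library. TPM do not hold the depth, for which the labels state only a minimum of 20 M reads per library. Differences are on the log2(TPM + 1) scale, which understates changes of low genes. The 9 compound libraries held 785125 to 797758 TPM in total over 35385 gene symbols, and 15431 to 15958 symbols lay above 0. Of the OPC markers, Olig1, Olig2, Pdgfra, Sox10, Cspg4 and Ptprz1 each averaged over 20 TPM across the 12 libraries. Some markers of other cells did so too: Tubb3 and Map2 of neurons, Aldoc and Fgfr3 of astrocytes, Acta2 of mesenchymal cells and Sox2 of pluripotent cells. By contrast, 11 of 12 microglial and myeloid markers stayed under 1 TPM in the mean of every group, with Cx3cr1, C1qa, C1qb and Trem2 at 0 in all libraries. Of the markers of myelin and differentiation, Mog and Mal were at 0 in all libraries, while Cnp, Bcas1, Fyn, Gjc3, Cd9 and Sirt2 averaged over 20 TPM. Library 1 of vehicle stood apart, with 86422 TPM from mitochondrially encoded genes against 147539 to 183001 TPM in the 9 compound libraries. Among these 9, library 3 of MTOAC correlated least with the rest across genes, at a mean of 0.935 against 0.951 to 0.957. Leaving out vehicle library 1 or MTOAC library 3 gave 0 called genes in each case, as in the full fit.

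No gene separated MTOAC from the ring-bearing compounds at the threshold of the test. Genes entered the test when 3 or more of the 12 libraries held 1 TPM of them, and of these 12009 genes limma called 0 (0%) at a Benjamini-Hochberg adjusted p under 0.05, and the smallest adjusted p, that of Hspa1a and Hspa1b, was 0.861. At an unadjusted p under 0.05 there were 436 genes, fewer than the 600 that 5% of the genes makes. They were 82 genes higher in MTOAC, 0.683% of those tested, and 354 genes lower, 2.95%. In 41 genes, 0.341%, all 3 MTOAC libraries lay above all 6 ring-compound libraries, and in 227 genes, 1.89%, they lay below. The lean towards lower values depended on the scale: after quantile normalization the genes at an unadjusted p under 0.05 split into 170 higher and 208 lower, and those without overlap into 86 above and 113 below. When the replicate number entered the fit as a block, 786 genes passed the unadjusted threshold and again 0 were called. The median gene differed by -0.05 log2, by -0.0019 without MTOAC library 2, and by -0.11 without MTOAC library 3.

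The absence of calls does not show that the compounds acted alike, and the intervals say how large a difference these libraries could still hold. These intervals come from the fit without the replicate number as a block. The 95% interval of the median gene reached 0.476 log2 to either side of its estimate. For 9490 genes, 79.0% of those tested, the whole interval lay within 1 log2 of 0, so that for these a difference of more than 2-fold on this scale lay outside the interval. Within 0.5 log2 of 0 there were 3868 genes, 32.2%. Precision followed the level of expression: of genes with a mean under 5 TPM, 57.4% had intervals within 1 log2, rising to 83.6% from 5 to 20 TPM, 93.8% from 20 to 100 TPM and 95.1% above that.

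The highest-ranked genes were Hspa1a and Hspa1b, neighbouring copies on chromosome 17 that encode the stress-inducible chaperone HSP70 and are classical targets of HSF1. On GRCm38, Hspa1a lies at chr17:34969190-34972156, minus strand and Hspa1b at chr17:34956436-34959238, minus strand. They are shown together because the copies share much of their sequence. In the 150 bases directly upstream of their RefSeq starts (build GRCm38.p6, minus strand, chr17:34972157-34972306 for Hspa1a and chr17:34959239-34959388 for Hspa1b), 149 of 150 positions matched. Capitals mark the stretch that matches a heat shock element of 2 units, GAANNTTC or TTCNNGAA on either strand.
Hspa1a: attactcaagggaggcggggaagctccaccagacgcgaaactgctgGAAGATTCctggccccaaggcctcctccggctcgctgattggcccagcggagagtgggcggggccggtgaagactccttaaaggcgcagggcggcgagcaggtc
Hspa1b: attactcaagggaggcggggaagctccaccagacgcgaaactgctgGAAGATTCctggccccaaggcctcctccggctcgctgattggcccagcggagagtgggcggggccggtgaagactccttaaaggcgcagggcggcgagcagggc
The 2-unit motif was searched after the strict element of 3 units had no match in either promoter. The 2-unit motif stands in 15.1% of all 32851 RefSeq promoters of 300 bases and the strict element in 0.603%, and both are descriptions of letters, not of binding. Of the 31-base words of the annotated transcripts, 63.8% in Hspa1a and 67.5% in Hspa1b also occur in the other copy, so that reads can be split between them and their separate values are uncertain.

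Hspa1a stood at 3.52, 1.86 and 2.92 TPM in the vehicle libraries, at 3.98, 10.2 and 3.14 TPM with CPC, at 8.55, 21.5 and 13.6 TPM with AEBDAC and at 34.5, 33.5 and 32 TPM with MTOAC. The 3 MTOAC libraries lay close together and above every ring-compound library, while CPC overlapped vehicle in library 3 and AEBDAC library 2 came nearest to MTOAC. The difference between MTOAC and the mean of CPC and AEBDAC was 1.86 log2 (95% interval 1.14 to 2.58), with an adjusted p of 0.861 in limma over all genes and an unadjusted p of 0.00014. Hspa1b stood at 5.58, 13.4 and 5.53 TPM with CPC, 9.14, 21.9 and 16.9 TPM with AEBDAC and 34.9, 38.5 and 37.5 TPM with MTOAC, a difference of 1.70 log2 (95% interval 1.03 to 2.36) and the same adjusted p. Summed over the 2 copies, the level was 6.42 to 9.70 TPM in vehicle, 8.68 to 23.6 TPM with CPC, 17.7 to 43.4 TPM with AEBDAC and 69.4 to 72.0 TPM with MTOAC, and the sum did not overlap between MTOAC and the ring-bearing compounds. In both CPC and AEBDAC it was library 2 that was highest for the pair. Without CPC library 2 the adjusted p of Hspa1a and Hspa1b fell to 0.107, which was the lowest value for any gene under any of the 24 alternatives of this comparison. The ring-bearing compounds were not level with each other either: Hspa1a was 1.25 log2 (95% interval 0.42 to 2.08) higher with AEBDAC than with CPC, with an unadjusted p of 0.0068 and an adjusted p of 1 in limma over the genes of all 3 pairs.

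**Figure D1:**
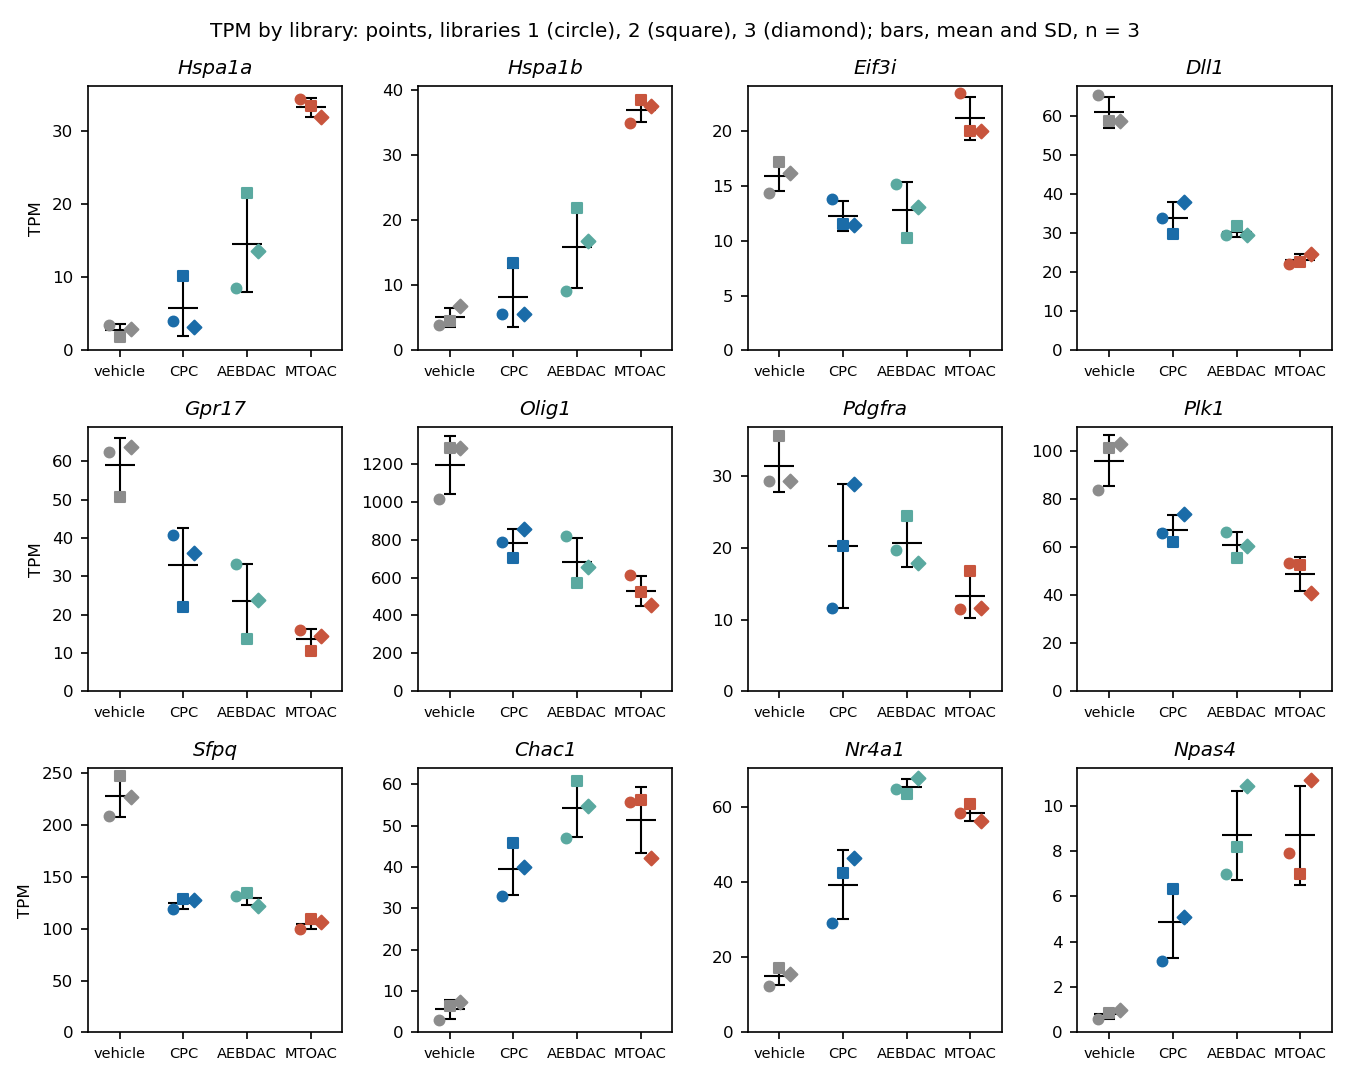
TPM (y axis, from 0) of 12 genes in each library of vehicle, CPC, AEBDAC and MTOAC (x axis), with symbols for the library numbers and bars for the mean and SD of 3 libraries. The 3 MTOAC libraries of Hspa1a and Hspa1b lie above all others, those of Dll1, Plk1 and Sfpq lie below all others, and for Chac1, Nr4a1 and Npas4 the MTOAC libraries lie among or near those of AEBDAC.

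The rest of the heat shock list was mixed in direction. Of 27 listed genes, chaperones, co-chaperones and their regulators, 26 were tested, 0 were called, 12 differences were above 0 and 14 below, and the median was -0.04 log2 against -0.05 for all genes, or 0.03 after quantile normalization. At an unadjusted p under 0.05 stood 4 genes higher, Hspa1a, Hspa1b, Fkbp4 and Hspb1, and 2 lower, Stip1 and Ubb, against 0.683% and 2.95% of all genes; Fkbp4, Hspb1 and Stip1 were named after their values were seen. Dnajb1, the main co-chaperone of HSP70, stood at 18.1, 24.7 and 20.3 TPM with CPC, 19.7, 26.2 and 22.3 TPM with AEBDAC and 21.7, 26.7 and 20.1 TPM with MTOAC, a difference of 0.06 log2 (95% interval -0.24 to 0.36). Its groups overlapped fully. Hspe1, the mitochondrial chaperonin partner, differed by 0.06 log2 (-0.10 to 0.23), Dnaja1, another co-chaperone, by -0.13 log2 (-0.30 to 0.05) and Hsph1, the HSP110 exchange factor, by -0.18 log2 (-0.58 to 0.22), so that differences the size of those of Hspa1a and Hspa1b lay outside their intervals. Stip1, which links HSP70 to HSP90, was lower in all 3 MTOAC libraries, 136, 152 and 143 TPM, than in the 6 others, 155, 184 and 173 TPM with CPC and 163, 172 and 162 TPM with AEBDAC. Fkbp4, an HSP90 co-chaperone, stood at 5.32, 6.72 and 11.4 TPM with MTOAC and under 2 TPM in the 6 others, but at 43.4, 0.566 and 4.53 TPM in vehicle, and its difference between MTOAC and the ring-bearing compounds was 2.30 log2 (95% interval 0.61 to 3.98), the largest of the list. The small heat shock protein gene Hspb1 stood at 9.57, 3.69 and 3.48 TPM with MTOAC and overlapped AEBDAC, which held 4.50, 2.42 and 0.514 TPM.

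Beside the HSP70 copies, 4 genes headed the higher side among named genes of at least 5 TPM in the mean of the higher side and without overlap, and none passed the test (adjusted p of 1 in limma for each). Eif3i, a subunit of translation initiation factor eIF3 (chr4:129591960-129600648, minus strand), stood at 23.5, 20.0 and 20.0 TPM with MTOAC against 13.8, 11.5 and 11.4 TPM with CPC and 15.2, 10.2 and 13.1 TPM with AEBDAC, a difference of 0.72 log2 (95% interval 0.41 to 1.03). Vehicle, at 14.4, 17.2 and 16.2 TPM, lay between in its mean, above both ring-bearing compounds and below MTOAC, and overlapped AEBDAC. Ddx18, an RNA helicase of the DEAD-box family (chr1:121553835-121567989, minus strand), stood at 6.52, 8.31 and 11.5 TPM with MTOAC and at most at 6.09 TPM in the 6 others, a difference of 1.12 log2 (95% interval 0.47 to 1.76). Dcun1d4, which helps to attach NEDD8 to cullins (chr5:73481000-73560794, plus strand), differed by 1.11 log2 (95% interval 0.54 to 1.68) and had MTOAC values of 6.36, 4.13 and 7.22 TPM, which overlapped vehicle at 4.65, 2.29 and 4.76 TPM. The level of 5 TPM was asked of the higher side alone, and Dcun1d4 and Ddx18 reached it in the mean with MTOAC and in no other group. Glod4, a glyoxalase-domain protein (chr11:76120987-76243725, minus strand), differed by 1.72 log2 (95% interval 0.79 to 2.65), mostly from AEBDAC, where it stood at 1.52, 0.902 and 7.10 TPM against 11, 12 and 5.06 TPM with CPC. Its gene model overlaps Vps53 and Gemin4 on the same strand, so that the counting may split reads between them.

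On the lower side the same rule gave Pramef8, Dll1, Gak, Cic, Zfp169 and Pdgfa, again with an adjusted p of 1 each. Cic encodes capicua, a transcriptional repressor that receptor tyrosine kinase signalling relieves (chr7:25267704-25294159, plus strand). It stood at 41.4, 35.8 and 39 TPM with MTOAC against 45.1, 48.3 and 44.5 TPM with CPC and 54.4, 49.1 and 53.6 TPM with AEBDAC, a difference of -0.34 log2 (95% interval -0.53 to -0.14) and the narrowest interval of the 6. Gak, a kinase of clathrin uncoating (chr5:108569411-108629755, minus strand), stood at 6.32, 5.08 and 7.61 TPM with MTOAC and at 8.73 TPM or more in the 6 others, and differed by -0.61 log2 (95% interval -0.95 to -0.27). Pdgfa, the ligand of the receptor encoded by Pdgfra (chr5:138976014-138997370, minus strand), stood at 2.49, 1.58 and 1.60 TPM with MTOAC, 2.95, 4.99 and 9.41 TPM with CPC and 3.99, 3.86 and 5.22 TPM with AEBDAC, and differed by -1.01 log2 (95% interval -1.64 to -0.39). The CPC libraries of Pdgfa spread more than the gap between the groups. Pramef8, of the PRAME multigene family whose members share sequence, differed by -0.60 log2 (95% interval -0.90 to -0.31), and the zinc finger gene Zfp169 by -1.09 log2 (95% interval -1.76 to -0.43).

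Markers of OPCs had mostly lower values with MTOAC than with the ring-bearing compounds, without a call for any one of them. Of 30 listed markers 28 were tested, and Matn4 and Zfp536 were below the filter. Differences were below 0 for 24 and above 0 for 4, with a median of -0.20 log2 against -0.05 for all genes, where 62.1% lay below 0. At an unadjusted p under 0.05 stood 4 lower, Gpr17, Olig1, Lims2 and Pdgfra, against 2.95% of all genes, and 0 higher. The median was -0.16 log2 after quantile normalization, -0.17 without MTOAC library 2, where 19 differences were below 0, and -0.31 without MTOAC library 3. Of all 12009 genes 6041 lay below 0 without MTOAC library 2. Summed over the list, the markers came to 2293 to 2419 TPM with MTOAC, 2601 to 2966 TPM with AEBDAC, 2775 to 2893 TPM with CPC and 3280 to 3604 TPM in vehicle. These sums did not overlap between MTOAC and the ring-bearing compounds, although the values of each of the 28 single markers did. A sum of TPM is weighted to the abundant markers, such as Olig1, and does not describe the list evenly. Neuron markers also had mostly lower values, 10 of 12 tested below 0 with a median of -0.13 log2, and their part in the result was not tested; of 9 tested astrocyte markers 6 were below 0, with a median of -0.03 log2. In bulk RNA fewer cells of a type and less RNA per cell cannot be told apart.

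Gpr17, a receptor of committed progenitors, stood at 62.4, 50.7 and 63.8 TPM in vehicle, 40.7, 22 and 36.2 TPM with CPC, 33.1, 13.6 and 23.7 TPM with AEBDAC and 16, 10.5 and 14.3 TPM with MTOAC. The only overlap was AEBDAC library 2, and library 2 was the lowest of its group in all 4 groups. The difference was -0.93 log2 (95% interval -1.51 to -0.35), with an unadjusted p of 0.0045 and an adjusted p of 1 in limma; with the replicate number as a block the adjusted p was 0.564. Its gene model overlaps Lims2 on the opposite strand, and the kit is not described as marking strand, so that reads of the 2 genes may be mixed there. Whether their exons overlap was not examined. Olig1, the transcription factor (chr16:91269772-91271933, plus strand), stood at 1016, 1282 and 1284 TPM in vehicle, 786, 704 and 855 TPM with CPC, 819, 569.7 and 656 TPM with AEBDAC and 613, 525 and 456 TPM with MTOAC. MTOAC overlapped AEBDAC and lay below CPC, and the difference was -0.46 log2 (95% interval -0.76 to -0.15). Its neighbour Olig2 (chr16:91225457-91228677, plus strand) stood at 333, 429 and 389 TPM with CPC, 431, 423 and 349.8 TPM with AEBDAC and 357, 379.8 and 263 TPM with MTOAC, which overlap, and differed by -0.25 log2 (95% interval -0.60 to 0.10). Pdgfra (chr5:75152292-75198215, plus strand) stood at 11.6, 20.2 and 28.8 TPM with CPC, 19.7, 24.4 and 17.9 TPM with AEBDAC and 11.5, 16.8 and 11.6 TPM with MTOAC, a difference of -0.56 log2 (95% interval -1.08 to -0.03). CPC library 1 of Pdgfra was as low as MTOAC. Sox10 varied with the library number more than with the compound: library 2 held 19.6 TPM in vehicle, 12.5 TPM with CPC, 7.48 TPM with AEBDAC and 7.15 TPM with MTOAC, against at least 21.9 TPM in every other library, and its difference was -0.63 log2 (95% interval -1.98 to 0.72), or -0.10 log2 without MTOAC library 2.

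Notch signalling, by which neighbouring progenitors restrain one another's differentiation, was represented by 27 genes, of which 23 were tested and 0 called. The ligand gene Dll1 (chr17:15367354-15376872, minus strand) stood at 65.6, 58.8 and 58.7 TPM in vehicle, 33.9, 29.8 and 38 TPM with CPC, 29.7, 32 and 29.7 TPM with AEBDAC and 22.3, 22.6 and 24.8 TPM with MTOAC. The 3 MTOAC libraries lay below all others, all compound libraries lay below vehicle, and the difference between MTOAC and the ring-bearing compounds was -0.45 log2 (95% interval -0.68 to -0.22) with an unadjusted p of 0.001. Among the target genes, Hes5, named after its values were seen, stood at 115, 60.9 and 71.9 TPM with CPC, 106, 38.9 and 45.4 TPM with AEBDAC and 44.5, 41.4 and 28 TPM with MTOAC, a difference of -0.84 log2 (95% interval -1.52 to -0.17). Nrarp, a feedback inhibitor of the pathway, differed by -0.76 log2 (95% interval -1.66 to 0.15). Of the receptor genes, Notch1 differed by 0.08 log2 (-0.27 to 0.42), Notch2 by 0.04 log2 (-0.32 to 0.39) and Notch3 by -0.15 log2 (-0.41 to 0.12). The median of the list was -0.05 log2, that of all genes, and it was 0.0016 after quantile normalization, -0.09 without MTOAC library 2, where that of all genes was -0.0019, and -0.12 without MTOAC library 3, where that of all genes was -0.11.

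**Figure D2:**
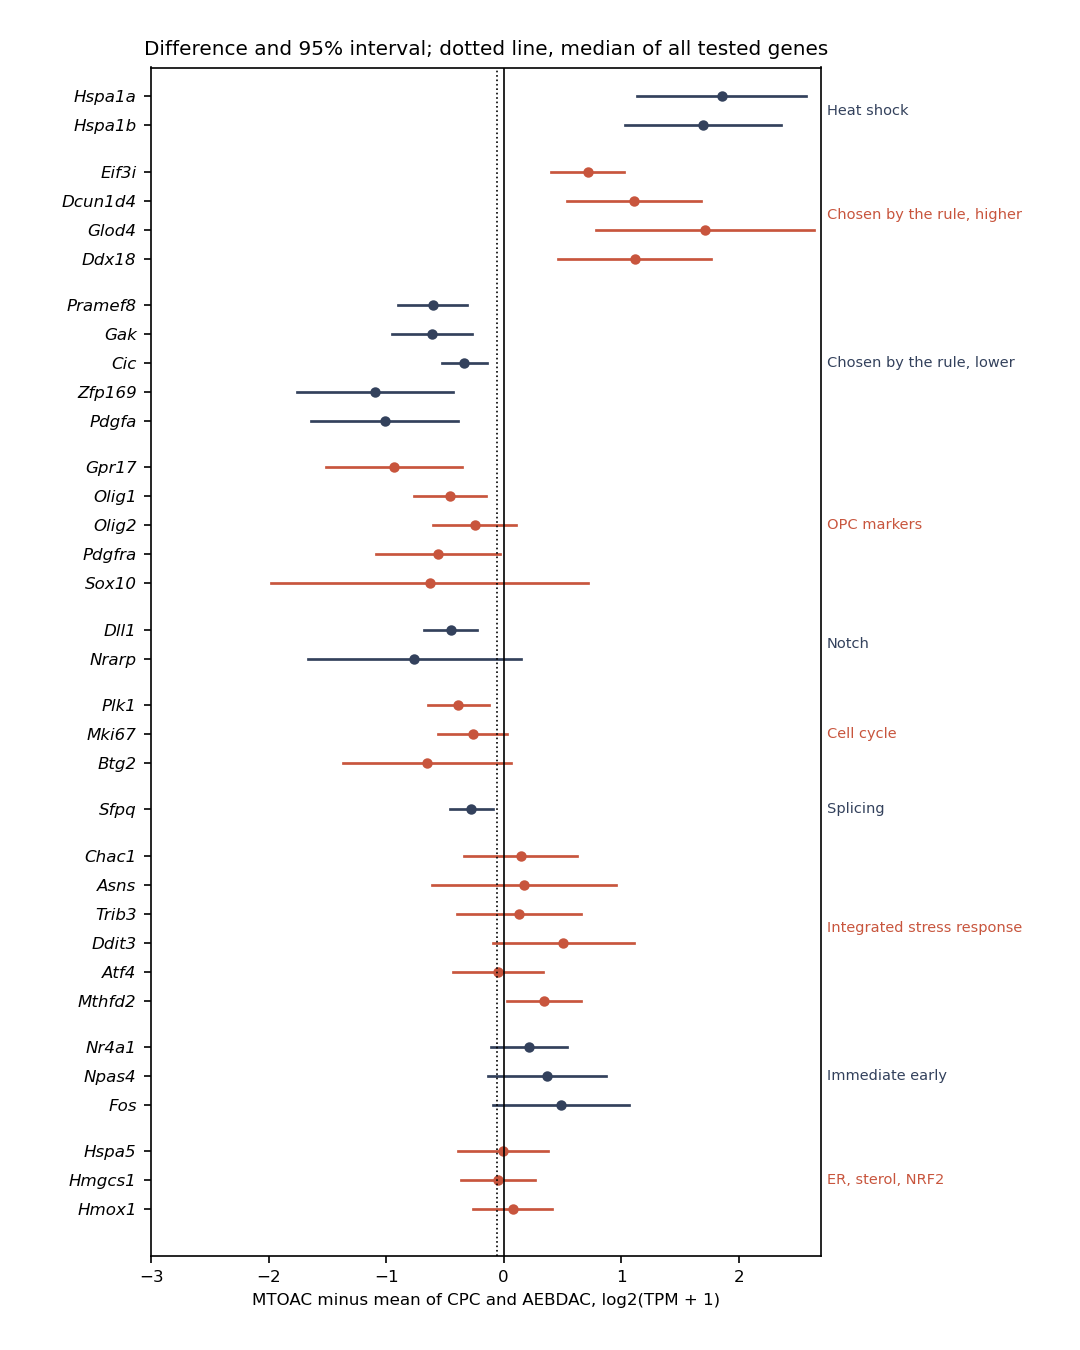
Difference between MTOAC and the mean of CPC and AEBDAC on the log2(TPM + 1) scale (x axis) for named genes (y axis, grouped), with 95% intervals from limma; the dotted line is the median of all tested genes, -0.05. Intervals of Hspa1a and Hspa1b lie wholly above 1, and those of Chac1, Atf4, Nr4a1, Hspa5, Hmgcs1 and Hmox1 include 0 and lie within 1 of it.

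Cell cycle genes, 45 listed and 45 tested with 0 called, had 35 differences below 0, where 62.1% of all genes lay below 0. Their median was -0.11 log2, -0.08 after quantile normalization, -0.05 without MTOAC library 2 and -0.17 without MTOAC library 3. The medians of all genes were -0.05 log2 and, in the same alternatives, -0.0059, -0.0019 and -0.11. Plk1, a kinase that drives mitosis (chr7:122159439-122169873, plus strand), stood at 53.5, 52.7 and 40.8 TPM with MTOAC, 66.3, 55.5 and 60.5 TPM with AEBDAC, 65.8, 62.1 and 73.9 TPM with CPC and 83.8, 101 and 103 TPM in vehicle, without overlap between MTOAC and the ring-bearing compounds, and the difference was -0.38 log2 (95% interval -0.65 to -0.12). Mki67, a marker of cycling cells, differed by -0.26 log2 (95% interval -0.56 to 0.03). Pcna, the replication clamp, differed by 0.01 log2 (-0.15 to 0.17), 1 of the narrowest intervals of the list. Of 40 splicing factors, all tested and 0 called, 4 were lower and 0 higher at an unadjusted p under 0.05, against 2.95% and 0.683% of all genes. The median of the splicing factors was -0.06 log2, and -0.17 without MTOAC library 3, against -0.05 and -0.11 for all genes. Sfpq, which encodes a paraspeckle and splicing protein (chr4:127021324-127037013, plus strand), stood at 99.5, 109 and 106 TPM with MTOAC against 119, 129 and 128 TPM with CPC, 132, 134 and 122 TPM with AEBDAC and 209, 248 and 227 TPM in vehicle, a difference of -0.28 log2 (95% interval -0.46 to -0.09) between MTOAC and the ring-bearing compounds. Most of the gap to vehicle was common to the 3 compounds. Btg2, an antiproliferative early response gene, differed by -0.65 log2 (95% interval -1.37 to 0.07) with overlapping groups. Ubap2, a ubiquitin-associated protein gene, stood at 4.70, 21.1 and 24 TPM with CPC, 1.59, 3.39 and 7.47 TPM with AEBDAC and 1.64, 0.803 and 4.20 TPM with MTOAC, and its difference of -1.49 log2 (95% interval -2.68 to -0.30) came mostly from CPC. Rbm12, an RNA-binding protein gene, differed by -0.20 log2 (95% interval -0.79 to 0.40), and all 9 compound libraries of it lay under 4 TPM against 14, 13.2 and 11.9 TPM in vehicle.

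Targets of the integrated stress response, the programme of amino acid supply and translation control, had mostly higher values with MTOAC than in the mean of the ring-bearing compounds, without a call. Of 48 listed genes 45 were tested, 0 were called, and 33 differences were above 0, where 37.9% of all genes were. The median was 0.11 log2 against -0.05 for all genes. It was 0.15 (35 of 45 above 0) after quantile normalization against -0.0059 for all genes, and 0.15 without MTOAC library 2 against -0.0019. Without MTOAC library 3 it was 0.0037, with 24 of 45 above 0, against -0.11 for all genes. Of all 12009 genes 5849 lay above 0 after quantile normalization, and 3421 without MTOAC library 3. Chac1, which breaks down glutathione and is a leading target (chr2:119351229-119354381, plus strand), stood at 3.05, 6.50 and 7.42 TPM in vehicle, 33, 45.9 and 40.0 TPM with CPC, 47.1, 60.7 and 54.9 TPM with AEBDAC and 55.8, 56.3 and 42.2 TPM with MTOAC. All 9 compound libraries lay far above vehicle and the MTOAC libraries lay within the range of the ring-bearing compounds; the difference was 0.14 log2 (95% interval -0.34 to 0.63). Trib3, a pseudokinase that feeds back on ATF4, differed by 0.13 log2 (95% interval -0.40 to 0.66) and stood at 25, 26.6 and 28.5 TPM with MTOAC, 21, 30.6 and 40.4 TPM with AEBDAC and 14.1, 23.2 and 23.8 TPM with CPC. Asns, the asparagine synthetase gene, differed by 0.17 log2 (95% interval -0.61 to 0.95), and Atf4 itself by -0.05 log2 (95% interval -0.43 to 0.34). For Chac1, Trib3 and Atf4 a difference of more than 2-fold on this scale lay outside the interval, whereas for Asns, at 5.49 to 22.8 TPM in the compound libraries, the interval nearly reached it. Mthfd2, a mitochondrial folate enzyme, had the smallest p of the list, 0.036 before adjustment, with 94.2, 119 and 141 TPM with CPC, 132, 156 and 177 TPM with AEBDAC and 152, 162 and 201 TPM with MTOAC. AEBDAC overlapped both CPC and MTOAC, and CPC was the lowest in the mean. The difference of Mthfd2 was 0.34 log2, and 0.23 log2 without MTOAC library 3. Ddit3, the gene of the transcription factor CHOP, differed by 0.51 log2 (95% interval -0.09 to 1.11), and by 0.23 log2 without MTOAC library 3. In the promoters of 300 bases, an amino acid response element (TGATGNAAT, either strand) was found in 6 of the 42 listed genes with a RefSeq entry and in 0.965% of all promoters. A CRE (TGACGTCA) was found in 1 of 42 and in 1.79% of all promoters. None of the 6 was Chac1, Asns or Trib3. Only these patterns were searched, so that other spellings of an element and sites outside the 300 bases would be missed. The matches describe letters, not binding.

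Of 25 tested immediate early genes 21 were higher with AEBDAC than with CPC, and 19 were higher with MTOAC than with CPC. Of 19 tested feedback inhibitors and targets of ERK signalling these were 16 and 14, and of all genes 53.1% and 40.9%. Higher with MTOAC than with AEBDAC were 12 of the 25, 6 of the 19 and 36.8% of all genes. Nr4a1, an orphan nuclear receptor gene induced by kinase signalling (chr15:101254269-101274795, plus strand), stood at 12.3, 17.1 and 15.6 TPM in vehicle, 29.1, 42.5 and 46.5 TPM with CPC, 64.9, 63.6 and 67.7 TPM with AEBDAC and 58.4, 60.9 and 56.3 TPM with MTOAC. Neither CPC nor AEBDAC overlapped MTOAC, which lay between them, so that the difference from their mean was 0.21 log2 (95% interval -0.11 to 0.54). Npas4, a calcium-responsive transcription factor gene, stood at 0.581, 0.844 and 1 TPM in vehicle, 3.17, 6.31 and 5.10 TPM with CPC, 7, 8.20 and 10.9 TPM with AEBDAC and 7.93, 7 and 11.1 TPM with MTOAC, and differed by 0.37 log2 (95% interval -0.13 to 0.87), and by 0.19 log2 without MTOAC library 3. Fos, a subunit of the AP-1 factor, differed by 0.49 log2 (95% interval -0.09 to 1.07). Of 33 listed immediate early genes 25 were tested and 0 called or at an unadjusted p under 0.05, with a median of 0.14 log2 that was 0.22 after quantile normalization, 0.0022 without MTOAC library 2 and 0.07 without MTOAC library 3. For the 20 genes of ERK feedback, 19 of them tested, the median was 0.08 log2, 0.15 after quantile normalization, 0.06 without MTOAC library 2 and -0.04 without MTOAC library 3. The medians of all genes were -0.05 log2 and, in the same 3 alternatives, -0.0059, -0.0019 and -0.11.

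Genes of the endoplasmic reticulum, of sterol metabolism and of oxidative stress gave 0 calls. Hspa5, the chaperone BiP, stood at 280.0, 246 and 289 TPM with CPC, 265, 241 and 326 TPM with AEBDAC and 255, 239 and 333 TPM with MTOAC, and the interval of its difference ran from -0.39 to 0.38 log2. Of 23 tested endoplasmic reticulum genes 22 had intervals within 1 log2. Hmgcs1, an enzyme of cholesterol synthesis, stood at 702, 749 and 674 TPM with CPC, 618, 739.7 and 763 TPM with AEBDAC and 571, 655 and 848 TPM with MTOAC and differed by -0.05 log2 (95% interval -0.36 to 0.26). In all, 22 of 25 tested genes of cholesterol synthesis had intervals within 1 log2, with a median of -0.05. Hmox1, haem oxygenase and a target of NRF2, stood at 59.3, 77.5 and 79.5 TPM with CPC, 71.6, 93.4 and 96.4 TPM with AEBDAC and 74.4, 94.5 and 81.3 TPM with MTOAC, which overlap, and differed by 0.08 log2 (95% interval -0.26 to 0.41). Of the 29 tested genes of the NRF2 and metal response 22 (75.9%) had intervals within 1 log2, and of the 11 tested genes of sterol efflux 8 (72.7%), both below the 79.0% of all genes. Chkb, choline kinase beta, led the 39 tested genes of phospholipid and sphingolipid metabolism with -0.68 log2 (95% interval -1.20 to -0.15) and overlapping groups, and -0.37 log2 without MTOAC library 3. Of 14 tested genes of xenobiotic metabolism and efflux 0 passed an unadjusted p under 0.05. The leading one, the transporter gene Abcc4, was low and uneven at 0, 2.07 and 0.128 TPM with CPC and 2.22, 3.12 and 3.76 TPM with MTOAC. AEBDAC, at 0.616, 3.47 and 1.58 TPM, overlapped MTOAC, and vehicle held 0.853, 4.13 and 5.29 TPM.

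The remaining lists gave 0 calls each and medians between -0.16 and 0.09 log2, beside quartiles of -0.19 and 0.07 for all genes. Mitochondrially encoded genes, 13 tested, had a median of 0.01 log2, and mt-Co1 differed by 0.10 log2 (95% interval -0.14 to 0.34). Genes of the nuclear respiratory chain had 40 of 44 intervals within 1 log2 and ribosomal protein genes 68 of 74, with medians of -0.02 and 0.00. Rps27 of the latter list differed by 2.34 log2 (95% interval 0.74 to 3.93). Its values were 13.3, 91 and 18.7 TPM with CPC and 102, 429 and 209 TPM with MTOAC. AEBDAC, at 23.9, 58.4 and 134 TPM, overlapped MTOAC. Vehicle held 55.3, 175 and 249 TPM, and the values spread widely within each group. Members with the smallest p elsewhere were Bbc3, the PUMA gene of the p53 list, at -0.87 log2, Birc2, an inhibitor of apoptosis, at -0.31, Nfkbiz, an inflammatory regulator, at 0.42, Aldoa, a glycolytic enzyme, at -0.55, Ctsa of the lysosome at -0.28, Ubb, a ubiquitin gene, at -0.32, Syvn1, a ubiquitin ligase of the endoplasmic reticulum, at -0.27, Etv1 of the ERK list at -0.30, and Bmpr1a, a BMP receptor, at 0.67. Without MTOAC library 3 the difference was -0.30 log2 for Bbc3, whose 95% interval in the full fit was -1.77 to 0.04, -0.17 for Aldoa (-1.16 to 0.06), -0.13 for Ubb (-0.61 to -0.03) and -0.13 for Ctsa (-0.59 to 0.02). Of the markers of other cells, astrocyte markers summed to 320 to 358 TPM with MTOAC, 352 to 396 TPM with AEBDAC and 338 to 360 TPM with CPC, and neuron markers to 298 to 386, 345 to 388 and 363 to 434 TPM.

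**Figure D3:**
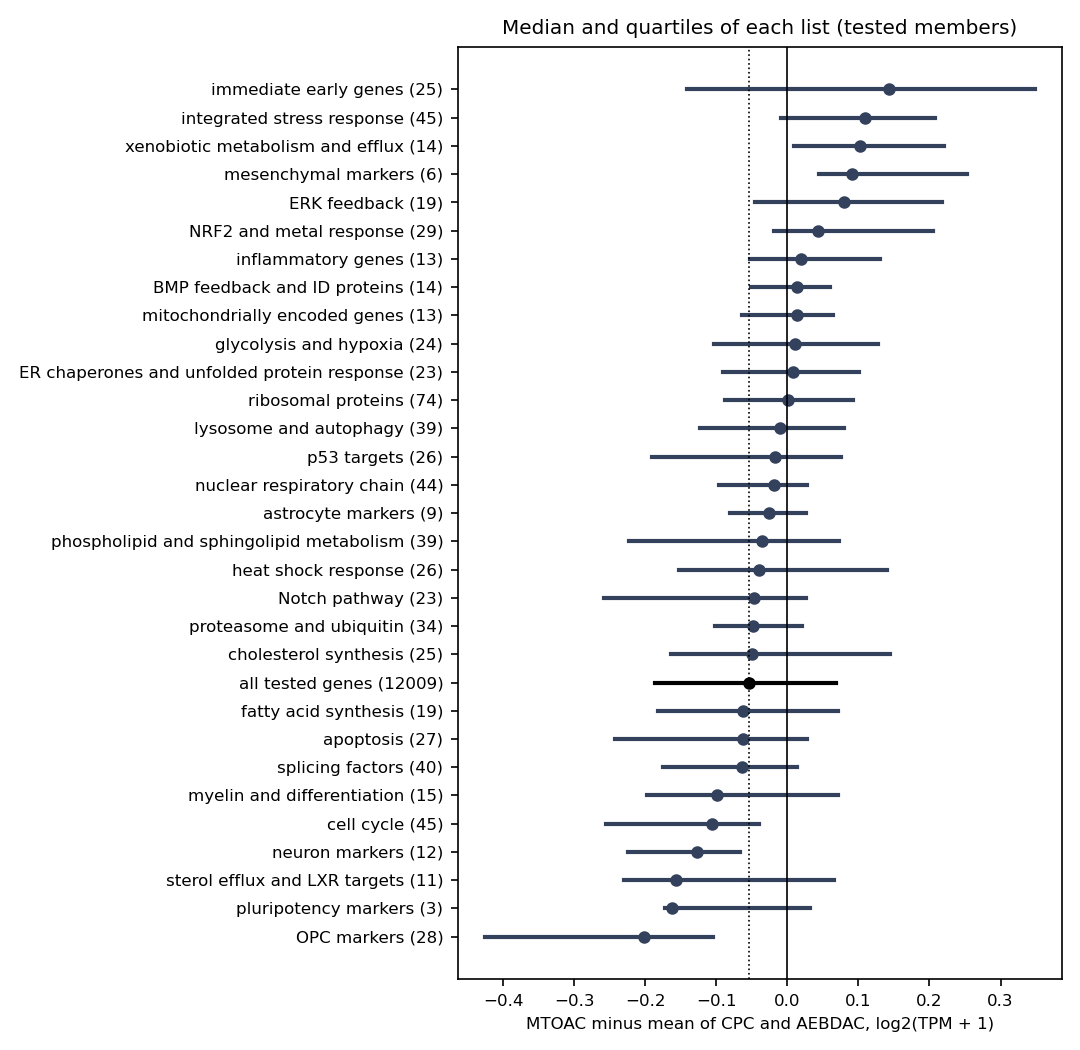
Median and quartiles of the difference between MTOAC and the mean of CPC and AEBDAC (x axis, log2(TPM + 1) scale) over the tested members of each gene list with at least 3 of them (y axis, number in brackets) and over all 12009 genes, with a dotted line at the median of all genes. OPC markers have the lowest median, -0.20, and immediate early genes the highest, 0.14.

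Taken pair by pair, the 3 compounds gave 0 called genes in each of the 3 comparisons (0% each), with p-values adjusted over the genes of all 3 pairs in limma. At an unadjusted p under 0.05 there were 449 genes for MTOAC against CPC, 307 for MTOAC against AEBDAC and 211 for AEBDAC against CPC. The median absolute difference was 0.156, 0.139 and 0.127 log2 in the same order. For the median gene the 95% interval reached 0.550 log2 to either side in each pair. This reach is the precision of a single gene and does not measure that of the median absolute differences. Which compounds were nearer to each other was not tested, and these medians do not settle it. Intervals within 1 log2 of 0 were found for 71.2%, 72.6% and 73.6% of genes. The pairs share libraries and their values are given side by side.

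The lists fell into different arrangements over the pairs. For the integrated stress response the median was 0.26 log2 for MTOAC minus CPC, -0.03 for MTOAC minus AEBDAC and 0.28 for AEBDAC minus CPC, with 35, 19 and 36 of 45 differences above 0. Of all genes 40.9%, 36.8% and 53.1% lay above 0 in these pairs. For immediate early genes these medians were 0.40, -0.0030 and 0.34 log2, and for ERK feedback 0.18, -0.04 and 0.23 log2. After quantile normalization the medians of MTOAC minus AEBDAC in these 3 lists were 0.02, 0.06 and 0.02 log2. MTOAC minus CPC was smaller without MTOAC library 3, at 0.12 log2 in the median of the integrated stress response and 0.19 in that of the immediate early genes, against -0.11 for all genes. Relative to the median of all genes these were 0.23 and 0.30 log2, beside 0.31 and 0.44 in the full fit. For the immediate early genes the median was 0.24 log2 without MTOAC library 2, against 0.0034 for all genes. For OPC markers the medians of the 3 pairs in the full fit were -0.20, -0.20 and 0.00048 log2, with 3, 5 and 14 of 28 above 0. For all genes they were -0.05, -0.06 and 0.01 log2. Without MTOAC library 3 the medians of MTOAC minus AEBDAC were -0.11 log2 in the integrated stress response, -0.14 in the immediate early genes and -0.14 in ERK feedback, against -0.12 for all genes. Without MTOAC library 2 the OPC markers above 0 were 7 of 28 for MTOAC minus CPC and 12 of 28 for MTOAC minus AEBDAC, with medians of -0.16 and -0.14 log2. Of all 12009 genes 6058 and 5918 lay above 0 in the same fits. No test of the difference between these lists was made. In single genes, Nr4a1 was 0.75 log2 (95% interval 0.37 to 1.12) higher with AEBDAC than with CPC and 0.59 log2 (95% interval 0.21 to 0.96) higher with MTOAC than with CPC, while MTOAC minus AEBDAC was -0.16 log2 (95% interval -0.53 to 0.22). Npas4 differed by 0.74, 0.74 and -0.003 log2 in the same order, and Asns by 0.90, 0.62 and -0.28 log2. Dll1 differed by -0.14 log2 between AEBDAC and CPC, and by -0.52 and -0.38 log2 between MTOAC and each of them, and Gpr17 by -0.51, -1.19 and -0.68 log2. The adjusted p in limma was 1 for every one of these genes in every pair.

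**Figure D4:**
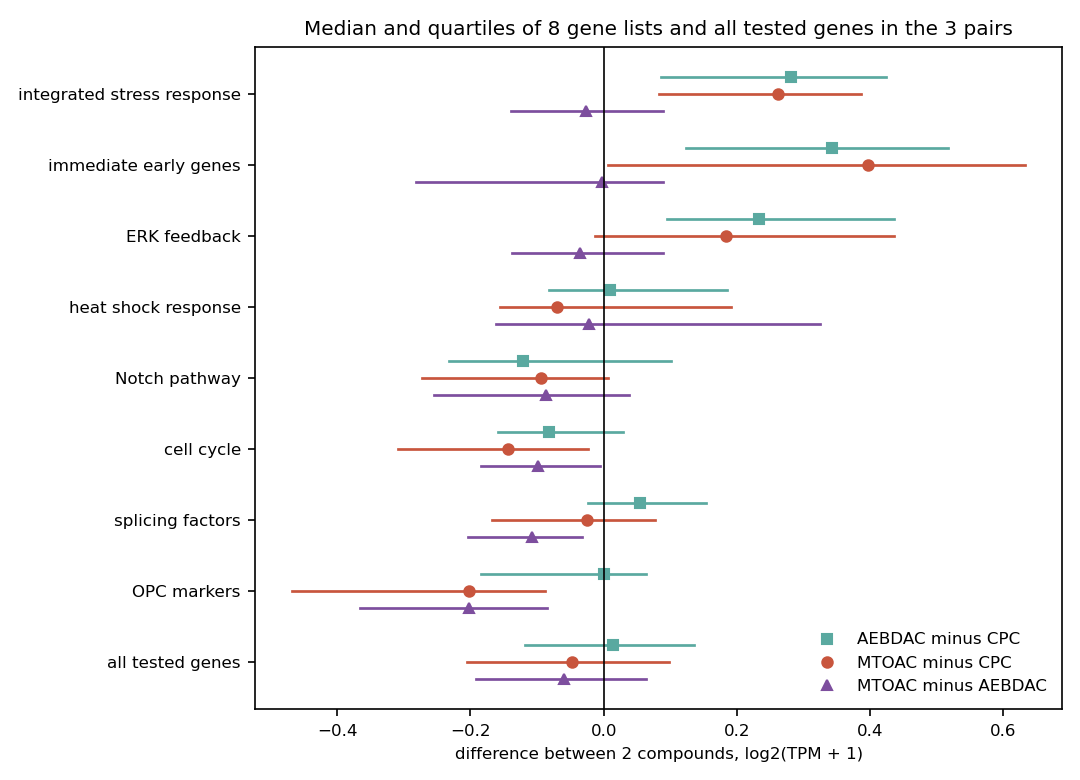
Median and quartiles of the differences on the log2(TPM + 1) scale (x axis) over 8 gene lists and all tested genes (y axis), for AEBDAC minus CPC (squares), MTOAC minus CPC (circles) and MTOAC minus AEBDAC (triangles). In the integrated stress response list AEBDAC and MTOAC both lie above CPC by 0.28 and 0.26 in the median, and in the OPC markers MTOAC lies 0.20 below both.

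Against vehicle the compounds gave unequal numbers of called genes: 8 for CPC (0.0666%), 153 for AEBDAC (1.27%) and 785 for MTOAC (6.54%). These 3 counts rest on the same 3 vehicle libraries, and the direct comparisons above called 0 genes, so that the counts do not show that the compounds differ. Without vehicle library 1, the one that stood apart, they were 3, 36 and 305. Leaving out any 1 of the 12 libraries gave 1 to 18 for CPC (fewest without CPC library 3, most without MTOAC library 3), 9 to 170 for AEBDAC (fewest without AEBDAC library 2, most without MTOAC library 3) and 149 to 676 for MTOAC (fewest without MTOAC library 2, most without AEBDAC library 1). With the replicate number as a block the counts were 184, 1072 and 1904. Hspa1a was 0.73 log2 above vehicle with CPC (adjusted p = 0.424 in limma), 1.98 log2 with AEBDAC (adjusted p = 0.0396) and 3.21 log2 with MTOAC (adjusted p = 0.00376); the call with AEBDAC was lost without vehicle library 1 (adjusted p = 0.0847 in limma) and without 8 other single libraries, and that with MTOAC with none of the 12. Chac1 rose with each compound, by 2.66, 3.11 and 3.03 log2, with adjusted p of 0.00425, 0.000531 and 0.0006 in limma. Dll1 was lower with each, at -0.83, -0.98 and -1.36 log2, with adjusted p of 0.0331, 0.00546 and 0.0006 in limma. The CPC call of Dll1 was lost without vehicle library 1 (adjusted p = 0.0997 in limma) and in all other fits without 1 library except that without MTOAC library 3. Of the 28 tested OPC markers 0, 1 and 5 were called lower with CPC, AEBDAC and MTOAC, beside 4, 106 and 690 of all 12009 genes. Of the 45 tested genes of the integrated stress response 3, 9 and 12 were called higher, beside 4, 47 and 95 of all 12009 genes. Without vehicle library 1 the list counts were 0, 0 and 2 of the OPC markers and 1, 6 and 9 of the integrated stress response. With the block they were 2, 5 and 8, and 7, 17 and 18. The totals over all genes given above for these settings hold both directions.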

How the data were processed

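Poly(A) RNA of 12 libraries, 3 each of vehicle, CPC, AEBDAC and MTOAC by their treatment labels, was sequenced as 150 bp paired reads, per the labels' protocols. Per the submitters' processing notes, Salmon and mm10 were used, and neither a version nor an annotation is named in the sources used here. TPM were deposited by the authors for 35385 gene symbols in each library. A count model was therefore not used, and the depth behind a value is unknown. Of the symbols 34858 matched GENCODE M21 (GRCm38), which gave coordinates; promoters came from RefSeq (GRCm38.p6).

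Genes with at least 1 TPM in 3 libraries were fitted on log2(TPM + 1) by limma 3.58.1 (R 4.3.3) with trend and robust moderation, 4 group means and 12 libraries, and two-sided p-values were adjusted by Benjamini and Hochberg; calls needed an adjusted p under 0.05. The fit was tested on simulated data. The compounds, 31 gene lists and tests were chosen with earlier results of these data known, and gene lists were given no test. Named genes were called genes with the largest differences; where none was called, the 6 per direction with the smallest p among named gene models of at least 5 TPM in the mean of the higher side without overlap; the member of each list with the smallest p; and 25 fixed genes. Of the genes so chosen 2 are not reported here.

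Same-numbered libraries deviated together from their group means across genes (correlations of 0.31, 0.45 and 0.25 between MTOAC and the mean of CPC and AEBDAC). The numbers, which come from the titles, thus met the rule for pairing, that all 3 exceed 0.1. The correlations were 0.33, 0.36 and 0.30 for MTOAC and AEBDAC and 0.28, 0.42 and 0.23 for AEBDAC and CPC, while MTOAC and CPC, with 0.17, 0.40 and 0.09, did not meet the rule. The main fit held no block, so its intervals and p-values leave this pairing out. Only the alternatives with the replicate number as a block include it. No 2 libraries of a group held identical values. Alternatives varied the pseudocount, the filter, the scaling, the moderation, the libraries and the block.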

Additional observations from a re-analysis of the deposited data

How the results depend on the processing

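MTOAC against the mean of CPC and AEBDAC gave 0 called genes under each of 24 alternatives, with 315 to 786 genes at an unadjusted p under 0.05 and a smallest adjusted p of 0.107 to 1. With the replicate block it called 0 genes, with 786 at an unadjusted p under 0.05, and the block changed no call in any pair of compounds. No filter on low values gave 1 call, Gm6520, for MTOAC against CPC and for AEBDAC against CPC. A fit of only the 2 compounds of a pair gave 1 call, Gm48175, for MTOAC against AEBDAC and 1, Gm28438, for AEBDAC against CPC. Leaving out 1 library gave 0 to 1 calls for AEBDAC against CPC, Gm28438 being called without vehicle library 3. These unnamed gene models were named after their calls were seen, and the cause was not tested. None of the 59 named genes was called under any alternative, and 54 kept their sign throughout. The 5 that changed sign lay near 0: leaving out 1 library gave -0.000413 to 0.332 log2 for Asns, -0.173 to 0.0864 for Atf4, -0.0151 to 0.156 for Hmox1, -0.206 to 0.0787 for Hmgcs1 and -0.146 to 0.0925 for Hspa5, which was 0.0084 log2 with quantile normalization, with or without the replicate block. Against vehicle, in alternatives chosen after seeing the data, quantile normalization called 16 genes for CPC, 182 for AEBDAC and 430 for MTOAC, the replicate block 184, 1072 and 1904, and leaving out 1 library 1 to 18, 9 to 170 and 149 to 676. The share of genes without overlap was 2.23%, 1.66% after quantile normalization and 2.43% from 5 TPM. TPM hold no depth, so precision was judged from the spread between libraries alone.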

Other observations

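Several genes followed the library number in all 4 groups, beside or in place of the compound. Egr1, an immediate early transcription factor gene chosen here after its values were seen, stood at 0.599, 1.67 and 5.78 TPM in vehicle libraries 1 to 3, at 2.26, 8.76 and 18.8 TPM with CPC, at 3.21, 12.1 and 21.9 TPM with AEBDAC and at 3.24, 16.0 and 19.0 TPM with MTOAC, so that library 1 was the lowest and library 3 the highest of each group. Hes6, a Notch-related factor of neural progenitors, was lowest in library 2 of every group, at 76.1, 37.4, 30.9 and 26.8 TPM in vehicle, CPC, AEBDAC and MTOAC. The titles do not say what a number shares. Ftl1, the ferritin light chain gene, lay in all 3 MTOAC libraries above all 6 libraries of CPC and AEBDAC, but rested on library 3: 41.2, 36.3 and 229 TPM with MTOAC against 20.0 to 34.4 TPM, while vehicle library 1 held 680 TPM and the other vehicle libraries 38.7 and 32.9 TPM. The heavy chain gene Fth1 differed by 0.06 log2 (95% interval -0.25 to 0.37) in the same comparison.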
